A study of Mus musculus with 6 samples.

Results

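Messages of mitochondrial ribosomal proteins were compared between untreated and poly(I:C)-treated MuTuDC1940 cells, a mouse dendritic cell line. The genes were taken by symbol, as those named Mrpl or Mrps with a number and at most 1 further letter, and reaching 0.5 TPM on average across the libraries compared. TPM is transcript abundance relative to a fixed total per library. All 78 symbols that match reached that limit, out of 12520 genes tested in all, so no gene was lost to it. The untreated group holds MuTuDC1940 cells with no addition, and the treated group holds the same line given poly(I:C), a synthetic double-stranded RNA that mimics viral RNA, at 5 µg/ml for 18 h. No genotype or further treatment is named for either group. The labels give 3 samples per group, and 2 libraries per group were compared, headed NT01 and NT02 (untreated) and PolyIC01 and PolyIC02 (treated), because the table's header leaves the remaining 2 columns unsettled. Nothing in the labels states that samples came from separate cultures. The p-values therefore measure the spread between libraries, and that spread may be purely technical. MuTuDC1940 is 1 tumour-derived line made with a viral oncogene expressed in dendritic cells, which limits it as a model of dendritic cells in tissue.

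Mitochondria carry their own ribosome, which translates the few messages of mitochondrial DNA, all for core subunits of the respiratory chain and the ATP synthase. Its ribosomal RNAs come from mitochondrial DNA in mammals, while all of its proteins are encoded in the nucleus, made in the cytosol and imported. Some of these proteins descend from the bacterial ancestor and have a counterpart in bacterial ribosomes, and others were added in the mitochondrial lineage. Dendritic cells sense double-stranded RNA through Tlr3 and cytosolic receptors, and their activation is known to come with a change of energy metabolism. Poly(A) capture was used for these libraries, and the values describe messenger RNA, not protein or assembled ribosomes.

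Markers of cell types, of growth and of the interferon response were read first. The 11 cDC1 markers (genes of type 1 conventional dendritic cells, among them Xcr1, Clec9a, Irf8 and Batf3) summed to 3744 to 3797 TPM in untreated and 3882 to 3954 TPM in treated libraries, and Itgae was the only one under 1 TPM. Irf8 alone made up most of that sum, at 2477 to 2639 TPM, and single markers moved both ways, with 4 fallen, 5 risen and 2 not past the threshold. Tlr3, a receptor for double-stranded RNA, was among those that fell, from 261 and 245 TPM to 136 and 151 TPM. All 8 genes of a list of interferon-induced genes rose (limma, adjusted p under 0.05). Of 12 proliferation genes 11 fell and 1 did not pass, and their sum moved from 3110 to 3120 TPM down to 2079 to 2083 TPM. Macrophage markers (9 genes) summed to 99.4 to 103 TPM in untreated and 442 to 458 TPM in treated libraries, with 6 of the 7 tested ones risen, while Csf1r was listed at 0 in both treated libraries. T cell markers summed to 0.807 to 1.67 TPM, B cell markers to 3.36 to 7.05 TPM and NK cell markers to 0.0300 to 0.108 TPM over the 4 libraries, with Cd3e, Cd3g and Ncr1 listed at 0 in all of them. Of 5 plasmacytoid dendritic cell markers 3 were tested. Among these 1 fell, 1 rose (log2 fold change 1.87) and 1 did not pass, with an untreated median of 7.23 TPM. Of 7 epithelial and fibroblast markers 2 were tested and both fell, with an untreated median of 5.47 TPM. The part of proliferation or of the macrophage genes in the values that follow was not tested.

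Messages for the mitochondrial ribosome were slightly lower after poly(I:C), and the individual genes moved in both directions. Of the 78 genes 29 fell, 17 rose and 32 did not pass the threshold (limma, adjusted p under 0.05). The 46 called genes are 59.0% of the 78, and 60.8% of all tested genes were called, so the share is close to the background. By direction 37.2% fell and 21.8% rose, beside 32.4% and 28.4% of all tested genes. At 10 TPM or more, 37.8% of the mitoribosomal genes fell and 21.6% rose, beside 39.7% and 29.7% of all tested genes. At that level the share that fell was thus not above the background. The median log2 fold change was -0.10, beside -0.02 over all tested genes. At 10 TPM or more it was -0.10, beside -0.05. In bulk RNA, fewer cells of a type and less RNA per cell cannot be told apart.

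The changes were small. None of the 78 genes reached 2-fold on the log2 scale of TPM + 1 used in limma, so none could pass there at any p. At an unadjusted p under 0.05 in limma 52 genes stood at any fold. That scale understates low genes, and the plain ratio of mean TPM was 0.489 for Mrpl58. Among all tested genes 8.44% passed with at least 2-fold. With a limit of 1.25-fold 17 genes passed, 13 of them lower and 4 higher, or 21.8% beside 41.6% of all tested genes. The median size of the change, whatever its sign, was 0.20 on the log2 scale against 0.27 over all tested genes. Treated and untreated libraries were fully separated for 66 of the 78 genes (84.6%), with the treated pair below in 45 and above in 21. Over all tested genes the 2 groups did not overlap for 81.3%, with the treated pair below for 42.4% and above for 38.9%. At 10 TPM or more, 85.1% of the mitoribosomal genes did not overlap, beside 86.0% of all tested genes. There the treated pair was below in 43 and above in 20 of 74 mitoribosomal genes. Among the 7826 tested genes at that level it was below in 3785 and above in 2946. At 10 TPM or more, 69.4% of all tested genes were called, and of the 74 mitoribosomal genes at that level 44 (59.5%) were.

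**Figure D1:**
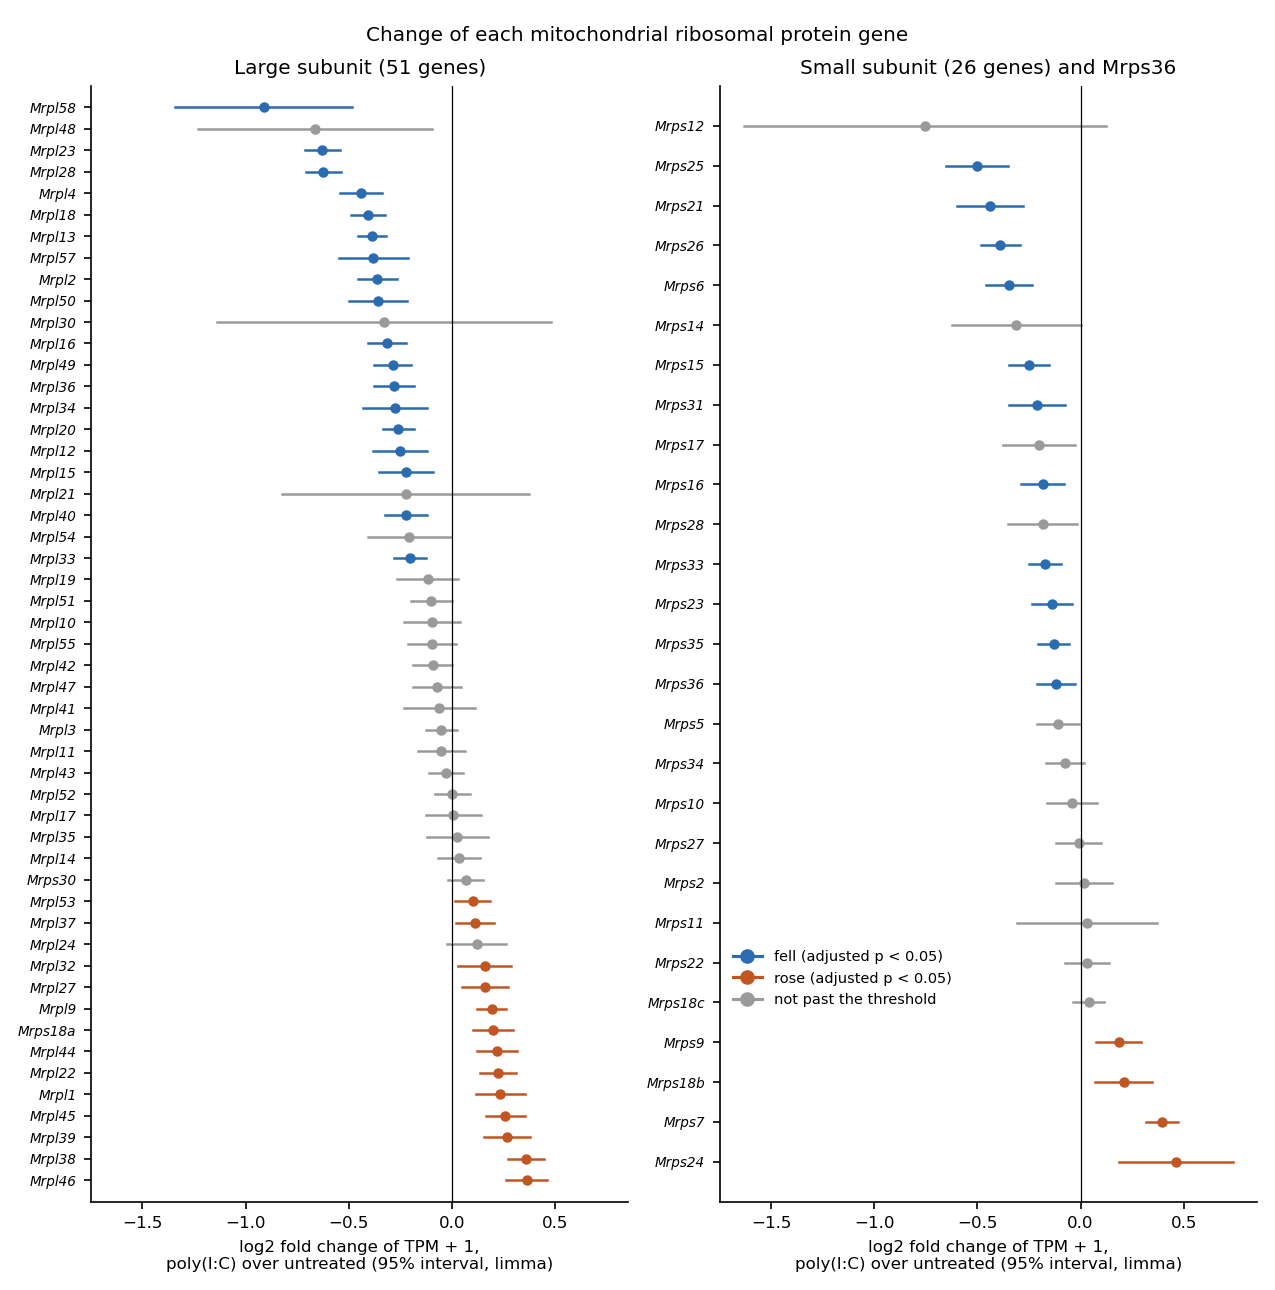
Log2 fold change of TPM + 1 (treated over untreated, 2 libraries per group) of each of the 78 genes, as a point with its 95% interval from limma, for the large subunit and for the small subunit with Mrps36. The points run from -0.91 for Mrpl58 to 0.46 for Mrps24, and the widest interval, that of Mrps12, spans -1.63 to 0.12.

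Libraries of a group gave close values for most of these genes. Standard errors and intervals reflect that spread between libraries, which may be purely technical. The median standard error of the log2 fold change was 0.042, with a range of 0.027 to 0.310, and it exceeded 0.1 in 8 genes. The higher of the 2 libraries of a group exceeded the lower by a median ratio of 1.03 in untreated and 1.04 in treated cells. That ratio passed 1.25 in 4 genes among untreated libraries (Mrpl21, Mrpl58, Mrps12 and Mrps14) and in 6 among treated ones (Mrpl21, Mrpl30, Mrpl48, Mrpl58, Mrps12 and Mrps24). Of the 32 genes that did not pass, 23 had a 95% interval within 1.25-fold either way, and the other 9 had intervals reaching beyond it. Those 9 were Mrpl21, Mrpl30, Mrpl48, Mrpl54, Mrps11, Mrps12, Mrps14, Mrps17 and Mrps28. Of the same 32 genes 22 had a negative and 10 a positive fold change.

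Levels spanned a wide range. TPM corrects for transcript length, so levels can be set side by side between genes. The mean over the 4 libraries ran from 0.945 TPM for Mrps14 to 192 TPM for Mrps18c, with a median of 59.4 TPM, and 13 genes reached 100 TPM. Mrps18c was followed by Mrpl20 (mean 153 TPM), Mrpl18 (142 TPM), Mrpl52 (141 TPM) and Mrpl13 (131 TPM). Mrps14, Mrpl21 (1.45 TPM) and Mrps24 (1.82 TPM) were the 3 genes under 2 TPM. Of the transcripts that RefSeq lists for these genes, the matched part of the table holds 142 against 203 in the gene table, and 25 genes have fewer transcripts in it than in the gene table. A low level can therefore miss transcripts that were not analysed here.

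The large subunit carries the peptidyl transferase centre, where amino acids are joined, and the tunnel through which the new chain leaves. Its 51 genes split into 18 that fell, 13 that rose and 20 not past the threshold, and their median log2 fold change was -0.09. The share called was 60.8%, the same as the 60.8% of all tested genes. By direction 35.3% fell and 25.5% rose, beside 32.4% and 28.4% of all tested genes. The 30 with a bacterial counterpart held 13 that fell, 5 that rose and 12 that did not pass, with a median of -0.16. The 21 without one held 5 that fell, 8 that rose and 8 that did not pass (61.9% called), with a median of -0.03. The difference between these classes was not tested.

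Among large-subunit proteins with a bacterial counterpart, Mrpl23, which lies at the exit of the tunnel, stood at 132 and 137 TPM in untreated and 88.0 and 85.3 TPM in treated libraries. The treated pair lay well below the untreated pair, and libraries of a group were close. The log2 fold change was -0.63 (SE 0.034, limma adjusted p = 4.19e-05). Mrpl23 lies on chromosome 7 from 142532467 to 142540747 (RefSeq, GRCm38.p6, as for all positions given here).

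Mrpl28 (chromosome 17 from 26123503 to 26126613) moved by nearly the same amount. Its values were 140 and 144 TPM in untreated and 90.4 and 93.4 TPM in treated libraries. The pairs were again clearly apart, with a log2 fold change of -0.62 (SE 0.033, limma adjusted p = 4.07e-05). Mrpl4, another protein of the tunnel region, had 80.1 and 82.1 TPM in untreated and 57.9 and 61.3 TPM in treated libraries, without overlap. It fell by 0.44 on the log2 scale (SE 0.041, limma adjusted p = 3.44e-04).

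Mrpl18, a protein of the central protuberance, is also among the 5 most abundant of the 78. It went from 161 and 163 TPM to 119 and 125.1 TPM, a log2 fold change of -0.41 (limma adjusted p = 2.17e-04). Mrpl13, another of the 5, went from 148 and 150 TPM to 114 and 113 TPM, a log2 fold change of -0.39 (limma adjusted p = 1.14e-04). Both fell with no overlap between the groups. Mrpl20, the second most abundant, fell less, from 168 and 165 TPM to 136 and 141 TPM, with a log2 fold change of -0.26 (limma adjusted p = 7.77e-04). Mrpl52, also of the 5, had 140 and 141 TPM and then 145 and 138 TPM, with overlapping groups and a log2 fold change of 0.00 (95% interval -0.08 to 0.09).

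Mrpl12, whose protein forms the stalk that receives translation factors, had 136 and 143 TPM in untreated and 112 and 123 TPM in treated libraries. The groups did not overlap, although the treated libraries differed from each other by more than those of Mrpl13. Its log2 fold change was -0.25 (SE 0.052, limma adjusted p = 0.0087). The other 6 of the 13 that fell were Mrpl2, Mrpl15, Mrpl16, Mrpl33, Mrpl34 and Mrpl36, with log2 fold changes from -0.36 (Mrpl2) to -0.20 (Mrpl33). When a library is left out, its group holds 1 library, which is assumed to vary like the other group and like genes of similar level. Without PolyIC01 the calls of Mrpl15 and Mrpl34 were lost (limma adjusted p = 0.0538 and 0.0545).

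The 5 large-subunit genes with a bacterial counterpart that rose were Mrpl1, Mrpl22, Mrpl9, Mrpl27 and Mrpl32. Mrpl1 belongs to the stalk next to the site where transfer RNAs leave. It had 22.8 and 22.3 TPM in untreated and 27.1 and 26.3 TPM in treated libraries, with a log2 fold change of 0.23 (SE 0.047, limma adjusted p = 0.0077). Mrpl22, which lines the tunnel, had 62.9 and 65.1 TPM and then 74.5 and 75.4 TPM, with a log2 fold change of 0.22 (SE 0.035, limma adjusted p = 0.0026). The treated values of both lay above the untreated ones. Mrpl9 went from 95.01 and 95.6 TPM to 110 and 109 TPM (log2 fold change 0.19), and Mrpl27 from 56.0 and 58.4 TPM to 62.1 and 65.9 TPM (log2 fold change 0.16). Mrpl32, whose precursor is cut by the m-AAA protease on import, went from 79.3 and 82.5 TPM to 86.5 and 94.7 TPM (log2 fold change 0.16, limma adjusted p = 0.0402). Of the 13 alternative settings given at the end, the call was lost under 5 for Mrpl27, 6 for Mrpl32 and 2 for Mrpl1. Among them were the fits without NT01 and without PolyIC02 for Mrpl27 and Mrpl32, and without PolyIC01 for Mrpl1. Over all 13 the log2 fold change ran from 0.12 to 0.20 for Mrpl27. It ran from 0.09 to 0.22 for Mrpl32 and from 0.21 to 0.26 for Mrpl1.

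Proteins of the tunnel region therefore did not share a direction, since Mrpl23 and Mrpl4 fell and Mrpl22 rose. Mrpl24, which also lies there, had 85.4 and 76.1 TPM in untreated and 88.4 and 87.0 TPM in treated libraries. It did not pass (log2 fold change 0.12, 95% interval -0.02 to 0.26, limma adjusted p = 0.125).

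Of the large-subunit proteins added in the mitochondrial lineage, Mrpl58 had the largest change of all 78 genes that passed. Mrpl58 is a peptidyl-tRNA hydrolase that is part of the ribosome and is known for freeing stalled ones. Its values were 9.32 and 11.8 TPM in untreated and 4.33 and 5.99 TPM in treated libraries (chromosome 11 from 115403724 to 115412674). Both treated libraries lay below both untreated ones, and the 2 libraries of each group differed by more than for most of these genes. The log2 fold change was -0.91 (SE 0.168, 95% interval -1.34 to -0.48, limma adjusted p = 0.0064). The ratio of mean TPM was 0.489.

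The other 4 of this class that fell were Mrpl57, Mrpl50, Mrpl49 and Mrpl40, with log2 fold changes of -0.38, -0.36, -0.29 and -0.22. Mrpl57 had 21.8 and 23.1 TPM in untreated and 16.2 and 17.8 TPM in treated libraries. Mrpl50 had 17.9 and 17.7 TPM and then 13.3 and 14.0 TPM. None of these 4 had overlapping groups.

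The 8 of the class that rose were Mrpl46, Mrpl38, Mrpl39, Mrpl45, Mrpl44, Mrps18a, Mrpl37 and Mrpl53. Mrpl46 (chromosome 7 from 78775341 to 78783089) had 35.1 and 36.1 TPM in untreated and 46.0 TPM in both treated libraries, and its log2 fold change was 0.36 (SE 0.039, limma adjusted p = 6.23e-04). Mrpl38 had 43.2 and 43.6 TPM in untreated and 56.1 and 56.0 TPM in treated libraries, with the same log2 fold change of 0.36 (SE 0.035, limma adjusted p = 4.13e-04). In both genes the libraries of a group were almost equal and the groups were far apart by comparison. Mrpl38, Mrpl40 and Mrpl46 sit together in the central protuberance, and Mrpl38 and Mrpl46 rose while Mrpl40 fell, from 85.7 and 87.9 TPM to 72.1 and 76.6 TPM.

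Mrpl39 had 44.3 and 42.3 TPM in untreated and 53.5 and 51.1 TPM in treated libraries, with a log2 fold change of 0.27 (SE 0.045, limma adjusted p = 0.0037). Mrpl45, which anchors the ribosome to the inner membrane at the tunnel exit, had 41.0 and 41.3 TPM and then 50.03 and 48.9 TPM, with a log2 fold change of 0.26 (SE 0.037, limma adjusted p = 0.0020). Both rises sit in predicted RefSeq transcripts. For Mrpl39 the predicted transcript had 38.7 and 37.4 TPM in untreated and 48.0 and 45.8 TPM in treated libraries, while the curated one had 5.59 and 4.85 TPM and then 5.58 and 5.31 TPM. For Mrpl45 the predicted transcript had 34.6 and 35.1 TPM and then 43.3 and 42.6 TPM, and the curated one 6.45 and 6.18 TPM and then 6.73 and 6.25 TPM. With curated transcripts alone neither passed (log2 fold changes 0.07 and 0.05, limma adjusted p = 0.640 and 0.704). Mrpl37 and Mrpl53 rose by the least, with log2 fold changes of 0.11 and 0.10, and both lost their call whichever library was left out. Of all 13 alternatives, the call of Mrpl37 was lost under 8 and that of Mrpl53 under 7.

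**Figure D2:**
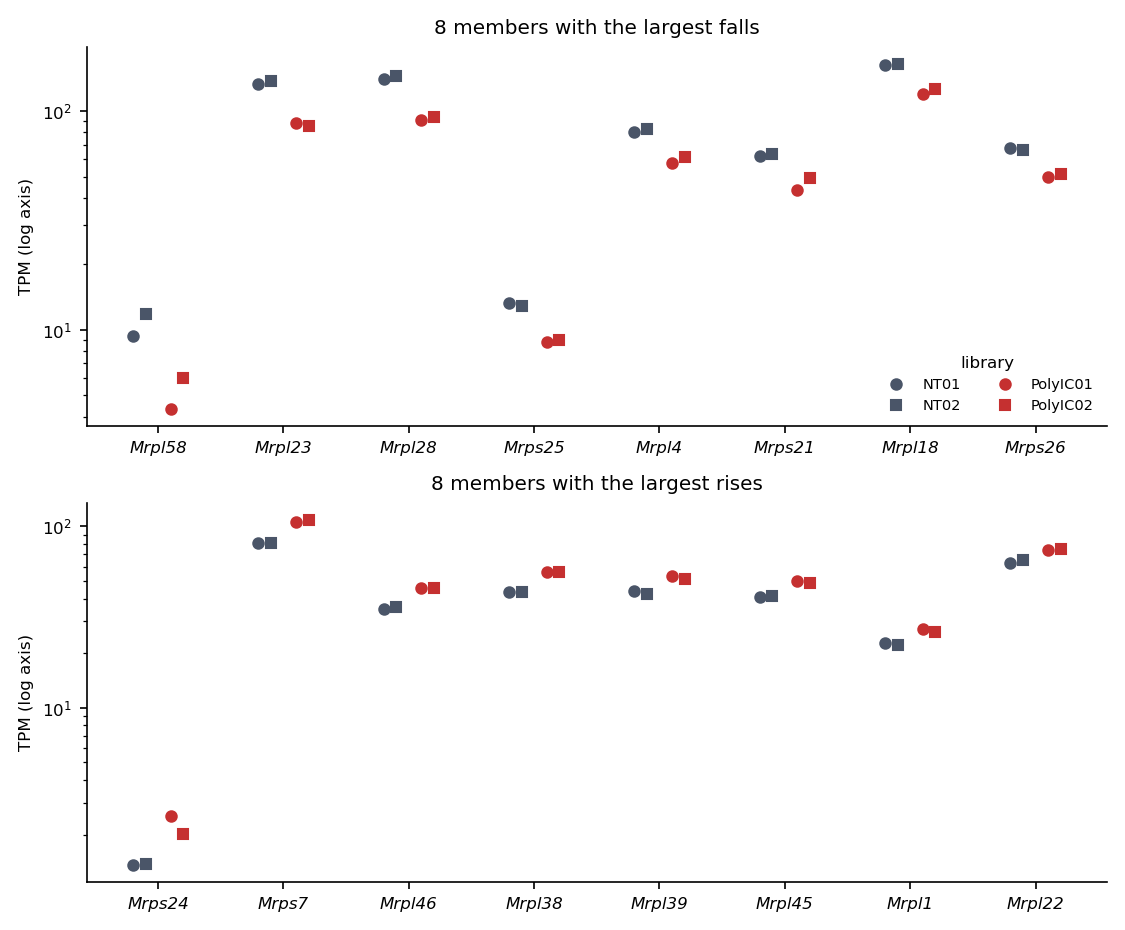
TPM (log axis) of the 8 genes that fell most and the 8 that rose most among those that passed, with 1 point per library. In each of the 16 genes the 2 treated points lie on one side of both untreated points, for example at 105.6 and 108.1 against 80.7 and 81.4 TPM for Mrps7.

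The small subunit binds the messenger RNA and holds the decoding centre. Its 26 genes split into 10 that fell, 4 that rose and 12 not past the threshold, and their median log2 fold change was -0.13. The share called was 53.8%, beside 60.8% of all tested genes. By direction 38.5% fell and 15.4% rose, beside 32.4% and 28.4% of all tested genes. Those with a bacterial counterpart (16) held 4 that fell, 3 that rose and 9 that did not pass (43.8% called). Those without one (10) held 6 that fell, 1 that rose and 3 that did not pass (70.0% called). The medians of the 2 classes were -0.15 and -0.13.

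Mrps25 had the largest fall of the small subunit among genes that passed, from 13.2 and 12.8 TPM to 8.77 and 8.93 TPM. Neither treated library came near the untreated values, and the log2 fold change was -0.50 (SE 0.059, limma adjusted p = 9.03e-04). Mrps21 followed with 62.2 and 63.5 TPM and then 43.3 and 49.1 TPM, a log2 fold change of -0.44 (SE 0.063, limma adjusted p = 0.0020). Mrps26 had 67.8 and 65.8 TPM and then 49.97 and 51.6 TPM (log2 fold change -0.39), and Mrps6 had 37.4 and 39.1 TPM and then 29.6 and 30.1 TPM (log2 fold change -0.35). Smaller falls were those of Mrps15, Mrps31, Mrps16, Mrps33, Mrps23 and Mrps35, with log2 fold changes between -0.25 (Mrps15) and -0.13 (Mrps35). The only curated transcript of Mrps35 had 28.5 and 33.2 TPM in untreated and 18.4 and 39.7 TPM in treated libraries, with overlapping groups. Predicted transcripts made up the rest of that gene. The call was lost without NT01 for Mrps23 and Mrps31 and without NT02 for Mrps35. It was also lost without PolyIC01 for Mrps16, Mrps23 and Mrps35, and without PolyIC02 for Mrps31 and Mrps35. Of all 13 alternatives, the call of Mrps23 was lost under 3 and that of Mrps35 under 6.

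Mrps7, a protein of the head of the small subunit, had the largest rise of the small subunit after Mrps24. It had 80.7 and 81.4 TPM in untreated and 106 and 108 TPM in treated libraries (chromosome 11 from 115604140 to 115608036), with a log2 fold change of 0.39 (SE 0.030, limma adjusted p = 1.65e-04). Mrps24 had 1.36 and 1.38 TPM and then 2.53 and 2.02 TPM. Its log2 fold change of 0.46 (SE 0.110, limma adjusted p = 0.0141) was the largest rise of the 78 genes, at a level near the lowest. Without PolyIC01 it no longer passed (limma adjusted p = 0.0819). Mrps9 rose from 54.9 and 53.1 TPM to 63.2 and 59.8 TPM, with a log2 fold change of 0.18 (limma adjusted p = 0.0131). It too did not pass without PolyIC01 (limma adjusted p = 0.0753).

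The genes Mrps18a, Mrps18b and Mrps18c encode related proteins that occupy different places in the ribosome. Mrps18a sits in the large subunit in spite of its name, and Mrps18b and Mrps18c sit in the small subunit. Mrps18a had 82.8 and 87.5 TPM in untreated and 96.4 and 99.5 TPM in treated libraries, with a log2 fold change of 0.20 (limma adjusted p = 0.0071). Mrps18b had 69.8 and 75.6 TPM and then 81.0 and 87.3 TPM, with a log2 fold change of 0.21 (limma adjusted p = 0.0214). Its call was lost under 5 of the 13 alternatives, among them without NT01 and without PolyIC02. Mrps18c, the most abundant of the 78, had 188.0 and 189.8 TPM and then 198.3 and 190.1 TPM. Both treated values lay above both untreated ones, by very little for PolyIC02. The gene did not pass (log2 fold change 0.04, 95% interval -0.04 to 0.12). Mrps30, the other protein of the large subunit with a small-subunit name, had 64.8 and 66.6 TPM and then 68.6 and 69.1 TPM and did not pass (log2 fold change 0.07, 95% interval -0.02 to 0.15).

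Mrps36 has the symbol of a ribosomal protein but is known as an adaptor of the 2-oxoglutarate dehydrogenase complex of the citric acid cycle. It had 95.1 and 90.6 TPM in untreated and 86.2 and 84.6 TPM in treated libraries, without overlap. It fell by 0.12 on the log2 scale (SE 0.036, limma adjusted p = 0.0337). That call was lost under 6 of the 13 alternatives, among them without NT01, PolyIC01 or PolyIC02.

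Among genes that did not pass, the 3 with the largest log2 fold changes had wide intervals. Mrps14, the gene with the lowest level, followed at -0.31 (95% interval -0.63 to 0.0036). It had 1.36 and 0.958 TPM in untreated and 0.806 and 0.661 TPM in treated libraries, without overlap. Mrps12, a protein of the decoding centre, had 10.5 and 17.3 TPM in untreated and 6.17 and 9.34 TPM in treated libraries. Every treated value lay below every untreated one, but the libraries of a group differed by more than 1.25-fold, and the log2 fold change of -0.75 had a 95% interval of -1.63 to 0.12 (limma adjusted p = 0.109). Mrpl30 had 78.01 and 78.3 TPM in untreated libraries, and PolyIC01 (81.7 TPM) and PolyIC02 (47.0 TPM) lay on either side of them, and the low value came from its curated transcript, which stood at 72.6 TPM in the first treated library and 38.0 TPM in the other. The log2 fold change was -0.33 (limma adjusted p = 0.378). It was 0.06 without PolyIC02 and -0.72 without PolyIC01, so a single treated library sets its sign.

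Mrpl48 had 21.1 and 20.6 TPM in untreated and 15.9 and 10.2 TPM in treated libraries, with a log2 fold change of -0.66 (limma adjusted p = 0.0506). Its transcripts did not move together: the non-coding one was at 3.99 and 9.33 TPM in untreated and at 7.42 and 0.0759 TPM in treated libraries. The curated coding one was at 14.9 and 9.54 TPM and then at 6.67 and 8.25 TPM. The log2 fold change of Mrpl48 was -0.96 without PolyIC01 and -0.37 without PolyIC02. Fits with 1 treated library take the spread from the close untreated pair and limma's trend, so their p-values say nothing of the spread between the treated libraries seen here. RefSeq names 6 pseudogenes after genes of this set, none of which had a value here, so whether such copies share reads with these genes was not tested.

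As a sum, the 78 genes held 5066 and 5152 TPM in the untreated libraries and 4705 and 4732 TPM in the treated ones. That is 0.511% of all TPM on average in untreated and 0.472% in treated libraries, or 7.64% lower. The large-subunit genes summed to 3532 and 3589 TPM and then 3246 and 3257 TPM (8.68% lower). The small-subunit genes summed to 1438 and 1472 TPM and then 1373 and 1390 TPM (5.07% lower). The treated sums lay below both untreated sums in each case.

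Cytosolic ribosomal proteins and nuclear-encoded subunits of the respiratory chain were lower by more. Subunits of the ATP synthase were counted with the respiratory chain here. The 81 tested cytosolic ribosomal protein genes summed to 113704 and 116719 TPM in untreated and 83144 and 84588 TPM in treated libraries (27.2% lower). By limma (adjusted p under 0.05) 75 of them fell, 1 rose and 5 did not pass, and the median log2 fold change was -0.45. The 79 tested respiratory chain genes summed to 24752 and 25467 TPM and then 20372 and 20664 TPM (18.3% lower). Here 69 fell, 1 rose and 9 did not pass, and the median was -0.31. No test between the sets was made, and both values stand beside the -0.10 of the mitochondrial ribosomal genes. TPM adds to a fixed total, so a fall in one set of abundant messages raises the share of all others.

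**Figure D3:**
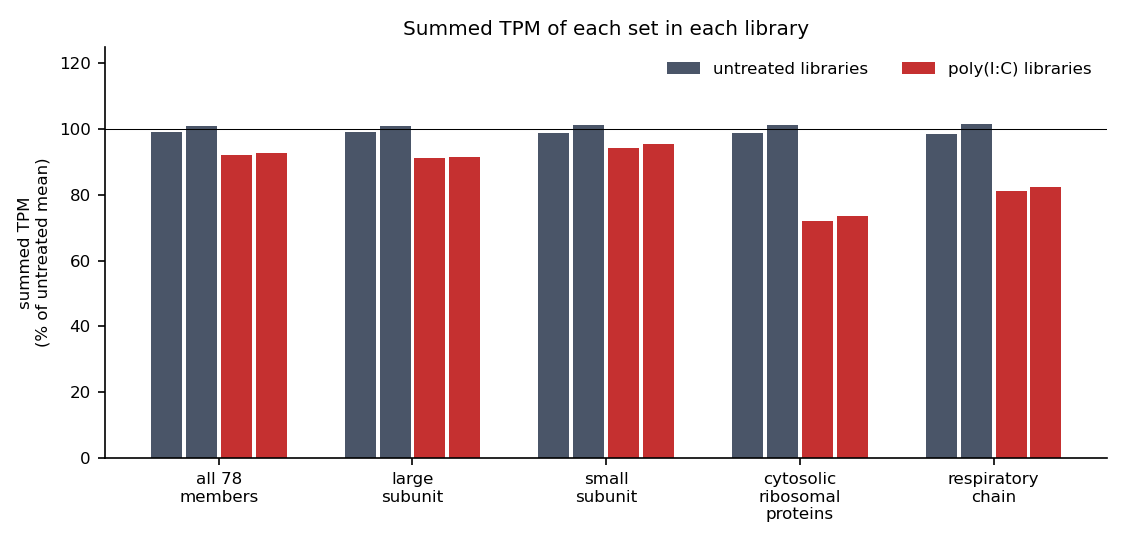
Summed TPM of each set in each library, as a percent of the set's untreated mean, with bars from 0. The treated bars stand nearest to 100 for the small subunit (5.07% lower on average) and farthest for the cytosolic ribosomal proteins (27.2% lower).

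**Figure D4:**
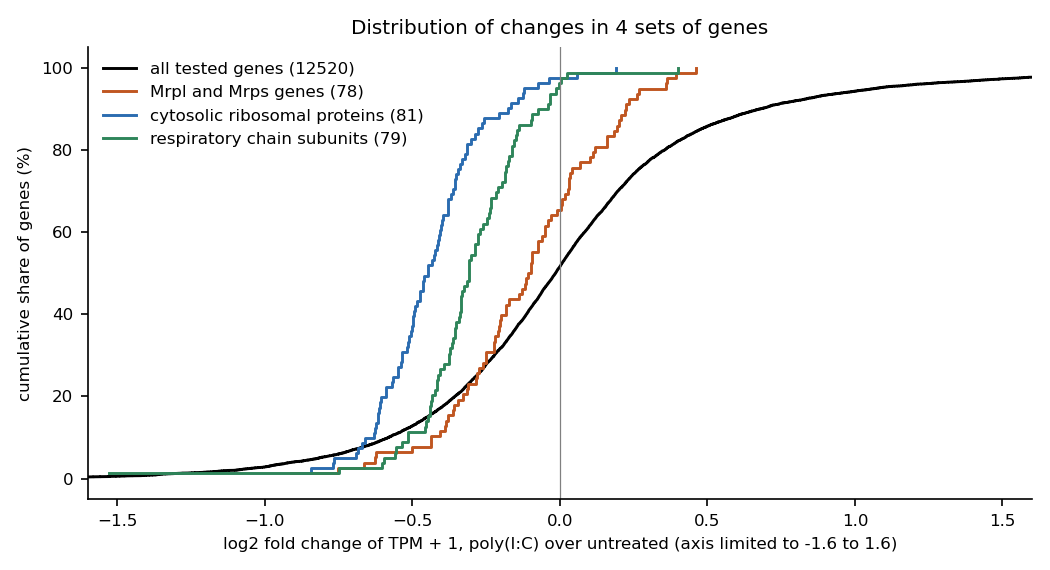
Cumulative share of genes against log2 fold change of TPM + 1 for all 12520 tested genes, the 78 Mrpl and Mrps genes, 81 cytosolic ribosomal protein genes and 79 respiratory chain genes. The respiratory chain genes include subunits of the ATP synthase. The medians are -0.02, -0.10, -0.45 and -0.31, and the curve of the Mrpl and Mrps genes is steeper than that of all tested genes.

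Other genes of the mitochondrial translation system were counted in the same way, beside the 60.8% called among all tested genes. Of the 5 mitoribosomal proteins without an Mrp symbol 4 fell, with log2 fold changes from -0.30 (Gadd45gip1) to -0.25 (Chchd1). Dap3, a GTP-binding protein of the small subunit, had 54.7 and 58.1 TPM and then 54.5 and 58.6 TPM, with overlapping groups and a log2 fold change of 0.00 (limma adjusted p = 0.964).

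Of 19 tested translation factors 6 fell, 5 rose and 8 did not pass (57.9% called, median log2 fold change -0.10). Gatc, a subunit of the amidotransferase that makes glutaminyl-tRNA, fell by 0.54 on the log2 scale, and Tsfm, the exchange factor of the elongation factor Tufm, by 0.48. Tufm itself had 91.1 and 93.0 TPM in untreated and 78.2 and 79.3 TPM in treated libraries (log2 fold change -0.22, limma adjusted p = 0.0017). Lrpprc, which stabilises mitochondrial messages, rose from 41.1 TPM in both untreated libraries to 46.1 and 46.0 TPM (log2 fold change 0.16, limma adjusted p = 0.0120).

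Of the 17 mitochondrial aminoacyl-tRNA synthetases 8 fell, 2 rose and 7 did not pass (58.8% called, median -0.18). Vars2, the enzyme for valine, had 10.97 and 10.4 TPM and then 6.02 and 6.33 TPM (log2 fold change -0.70, limma adjusted p = 4.41e-04). Its treated values lay well below the untreated ones.

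Of 24 genes for assembly of the mitoribosome and modification of its RNA 6 fell, 4 rose and 14 did not pass (41.7% called, median 0.00). Nsun4, a methyltransferase that acts in ribosome assembly, had 6.39 and 5.69 TPM in untreated and 12.3 and 12.4 TPM in treated libraries (log2 fold change 0.93, limma adjusted p = 2.12e-04). Noa1, a GTPase, had 41.7 and 42.0 TPM and then 26.3 and 28.4 TPM (log2 fold change -0.60, limma adjusted p = 2.56e-04). These 2 genes of the same process moved in opposite directions.

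Of 12 genes for replication and transcription of mitochondrial DNA 5 fell, 1 rose and 6 did not pass, so that 6 of 12 were called. The catalytic and accessory subunits of the DNA polymerase fell by similar amounts, Polg by 0.63 and Polg2 by 0.64 on the log2 scale. Polrmt, the RNA polymerase, had 14.0 and 13.4 TPM and then 10.4 and 10.3 TPM (log2 fold change -0.37, limma adjusted p = 0.0031). Tfam, which packages mitochondrial DNA and starts its transcription, had 35.9 and 34.3 TPM and then 39.5 and 36.7 TPM and did not pass (log2 fold change 0.12, limma adjusted p = 0.111). Of 14 import and folding genes 5 fell, 5 rose and 4 did not pass (71.4% called), with Tomm70a, an import receptor, highest (log2 fold change 0.43) and the chaperone Hspd1 lowest (-0.34).

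Of 10 tested regulators known to act on nuclear genes for mitochondria 4 fell, 3 rose and 3 (Gabpb1, Esrra and Sp1) did not pass, or 70.0% called beside the 60.8% of all tested genes. Myc, a transcription factor of growth and ribosome production, had 117 and 110 TPM in untreated and 46.7 and 47.7 TPM in treated libraries (log2 fold change -1.25, limma adjusted p = 9.48e-06). Its partner Max had 125.02 and 123 TPM and then 186 TPM in both (log2 fold change 0.58, limma adjusted p = 2.37e-05). Nrf1 (nuclear respiratory factor) had 32.7 and 33.7 TPM and then 25.2 and 23.4 TPM (log2 fold change -0.44, limma adjusted p = 0.0012).

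Gabpa, an ETS-family factor, had 33.2 and 32.0 TPM and then 26.2 and 26.1 TPM (log2 fold change -0.31), and Pprc1, a coactivator, had 50.5 and 43.7 TPM and then 55.0 and 54.1 TPM (log2 fold change 0.21, limma adjusted p = 0.0462). With curated transcripts alone the fold changes of Gabpa and Pprc1 turned to 0.38 and -0.57, and neither passed (limma adjusted p = 0.110 and 0.0510). Nrf1 kept its fold change there (-0.44) without passing (limma adjusted p = 0.0793). Esrra had 11.1 and 18.5 TPM and then 27.3 and 17.4 TPM, with overlapping groups (limma adjusted p = 0.225). Ppargc1a and Ppargc1b lay under 0.5 TPM in every library and were not tested.

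Promoters of the 78 genes were read for short sequences that such factors are known to bind. RefSeq windows (GRCm38.p6) of 300 bases, 250 before and 50 after an annotated start, were at hand for 69 of the 78 genes (75 windows). That start is not always the outer end of the gene, as in Mrpl18, Mrpl22, Mrpl36 and Mrps23. Mrps23 (plus strand) begins at 88194106, and its window runs from 88204138 to 88204437. The letters CCGGAAG (ETS core) and AAGATGGC (YY1 core) and the NRF1 core were searched on both strands. The NRF1 core was taken in 2 forms of 10 letters that can overlap, and its letters are the capitals of the first set of sequences printed here. The ETS core was in 26 of the 69 genes (37.7%), the YY1 core in 12 (17.4%) and the NRF1 core in 7 (10.1%). Among the 10011 tested genes with a window these shares were 20.5%, 5.49% and 3.11%, and among all 32851 windows 8.86%, 2.75% and 1.35%. A match is a description of letters, not a bound site or a cause.

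The 7 genes with an NRF1 core held 5 that rose, 2 that did not pass and 0 that fell. Of the 311 tested genes with that core 22.5% rose and 36.0% fell, so the direction seen in these 7 genes is not that of all genes with the core. No test was made of this count, which was seen in the same libraries. Among the 5, Mrpl32 lost its call under 6 and Mrps18b under 5 of the 13 alternatives, both without NT01 and without PolyIC02 among others. Mrpl39 lost its call with curated transcripts alone. The 30 bases around the core of each gene are shown 5′ to 3′ on the gene's strand, the core in capitals, for the 5 genes that rose and then for Mrpl10 and Mrpl17, which did not pass.
Mrpl39 chr16:84735350-84735379 (minus strand): aaggagaggcGCGCATGCGCccccgcgtgg
Mrpl22 chr11:58171620-58171649 (plus strand): ggcctcggacTGCGCATGCGtatagtcagc
Mrps18b chr17:35916645-35916674 (minus strand): aacggcccgaCGCATGCGCActgggagcac
Mrpl9 chr3:94443297-94443326 (plus strand): gaggcgcagcTGCGCATGCGCggggtcctt
Mrpl32 chr13:14613105-14613134 (minus strand): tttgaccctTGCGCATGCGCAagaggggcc
Mrpl10 chr11:97041437-97041466 (plus strand): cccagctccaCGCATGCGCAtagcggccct
Mrpl17 chr7:105811080-105811109 (minus strand): gccgagttacTGCGCATGCGtcctctgaga

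The YY1 core was in the windows of 12 genes, of which 2 fell, 5 rose and 5 did not pass. Of the 550 tested genes with that core 32.2% fell and 26.7% rose. The core lay before the start used for the window in 4 of the 12 and after it in 8. The 30 bases around it are shown for 4 genes that rose, beside the 2 that fell.
Mrps7 chr11:115604147-115604176 (plus strand): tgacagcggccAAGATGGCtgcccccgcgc
Mrps18a chr17:46111004-46111033 (plus strand): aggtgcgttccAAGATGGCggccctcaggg
Mrps24 chr11:5707652-5707681 (minus strand): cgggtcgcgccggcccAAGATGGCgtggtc
Mrpl37 chr4:107066822-107066851 (minus strand): ctgcacgggcaAAGATGGCggcgtccaggt
Mrpl49 chr19:6057721-6057750 (minus strand): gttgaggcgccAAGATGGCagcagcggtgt
Mrpl36 chr13:73330968-73330997 (plus strand): cgtgaccttacGCCATCTTtcttcctggcg

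The same letters thus stood in genes that moved in opposite directions, and in Mrpl36 they stand on the other strand. They also stand on the other strand in Mrpl32, which rose and is not printed for this core, and in Mrps11 and Mrps12, which did not pass. The ETS core was in 26 genes, of which 10 fell, 5 rose and 11 did not pass, and of the 2048 tested genes with it 32.5% fell and 25.7% rose. Of the 69 genes 31 held none of the 3 cores. Mrpl28 and Mrps25, both among the genes that fell most, are of this kind. The 150 bases before their start are shown with those of Mrpl39, which rose and has its NRF1 core in capitals.
Mrpl28 chr17:26123353-26123502 (plus strand): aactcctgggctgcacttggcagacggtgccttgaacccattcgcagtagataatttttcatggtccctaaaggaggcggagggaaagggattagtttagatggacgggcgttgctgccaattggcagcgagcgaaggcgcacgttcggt
Mrps25 chr6:92184024-92184173 (minus strand): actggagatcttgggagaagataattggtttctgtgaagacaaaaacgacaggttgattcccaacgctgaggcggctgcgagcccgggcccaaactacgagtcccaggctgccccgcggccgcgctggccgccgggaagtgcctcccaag
Mrpl39 chr16:84735245-84735394 (minus strand): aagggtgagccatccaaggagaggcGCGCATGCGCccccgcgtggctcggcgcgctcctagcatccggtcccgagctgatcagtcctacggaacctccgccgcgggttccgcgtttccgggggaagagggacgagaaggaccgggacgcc

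**Figure D5:**
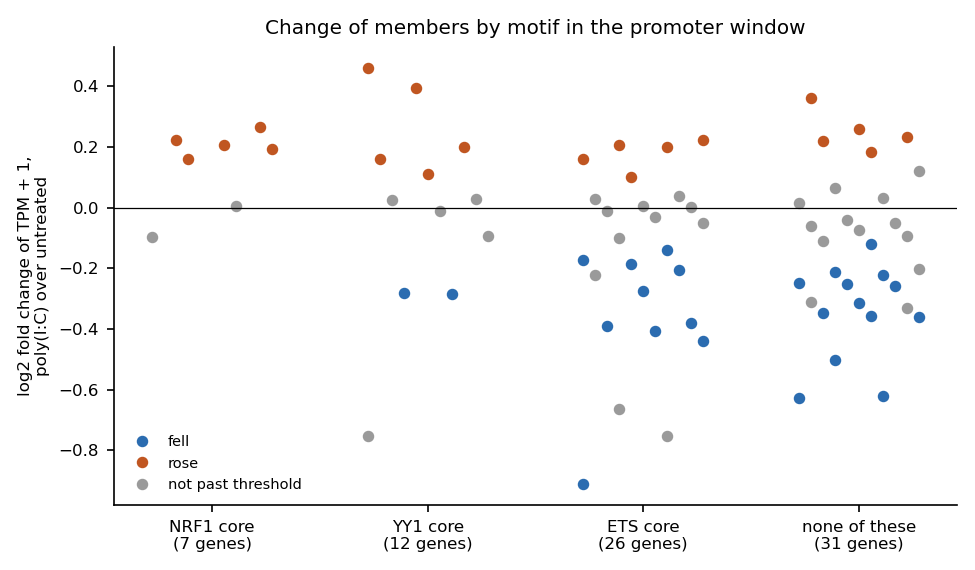
Log2 fold change of TPM + 1 of the genes whose promoter window holds each core, with 1 point per gene coloured by its call (a gene with 2 cores appears under both). The points of the 7 genes with an NRF1 core lie between -0.10 and 0.27, with 5 risen, while those of the 31 genes with none of the cores lie on both sides of 0.

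Many of these genes share a start region with a neighbour. They lie on 17 chromosomes, with 11 on chromosome 11 and 8 on chromosome 17. In the GENCODE annotation of GRCm38, 33 of the 78 have a protein-coding neighbour on the opposite strand whose start lies within 1000 bases of theirs. There were 29 such pairs with a tested partner, and in 11 of them (37.9%) both genes were called. Over all tested genes 846 such pairs were found, with both called in 39.5%. In 10 of the 11 pairs (90.9%) both genes moved the same way, beside 70.7% of the 334 pairs of this kind over all tested genes, and no test of that difference was made. The other 18 pairs held at least 1 gene that did not pass, among them Mrpl30 (log2 fold change -0.33, not past) with Mitd1, which rose by 1.104 on the log2 scale. Both fell in 7 pairs, namely Mrpl13 and Mtbp, Mrpl18 and Tcp1, Mrpl2 and Klc4, Mrpl36 and Ndufs6, Mrpl40 and Hira, Mrpl49 and Fau, and Mrpl57 and Ska3. Both rose in 3 pairs, namely Mrpl32 and Psma2, Mrpl44 and Wdfy1, and Mrps18b and Ppp1r10.

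Sizes within a pair were not always alike. Mrpl44 had 36.7 and 37.4 TPM and then 43.3 TPM in both treated libraries (log2 fold change 0.22), while Wdfy1 rose by 1.48 on the log2 scale. Mrpl27 and Eme1 were the pair that moved apart, with Eme1 at a log2 fold change of -1.10 that did not pass when either untreated library was left out. The call of Mrpl27 was lost under 5 of the 13 alternatives, among them without NT01 and without PolyIC02. The call of Ppp1r10 was also not kept with curated transcripts alone, where its log2 fold change was -0.16 in place of 0.31 (limma adjusted p = 0.406). Mrpl46 and Mrps11 are both of the 78, with starts 412 bases apart. Mrpl46 rose, and Mrps11, at 26.03 and 31.2 TPM and then 26.3 and 32.3 TPM, did not pass (log2 fold change 0.03, 95% interval -0.31 to 0.37). Of the 78 genes 26 overlap another protein-coding gene, 23 of them on the opposite strand, and no source at hand states whether strand was used in the quantification. Reads of such genes may therefore be shared.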

How the data were processed

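Polyadenylated RNA was sequenced from directional libraries, per the labels' protocols, and GRCm38, kallisto 0.42.4 and bcl2fastq 2.20.0.422 are named in the submitters' processing notes. The values the authors deposited were read as TPM per RefSeq transcript, since each column sums to 1000000 although the table is named for FPKM. TPM keeps no depth, so depth is unknown and no count test was used. The header gives fewer names than the 6 value columns, so the group of 2 columns of per-sample values is not settled, and they were not used.

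Of 107384 transcripts 86722 (80.8%) matched a RefSeq symbol (GRCm38.p6), and their TPM were summed per symbol. Genes averaging 0.5 TPM or more were compared on log2(TPM + 1) by limma 3.58.1 (R 4.3.3) with intensity trend and robust moderation, with no covariate, and p was adjusted by Benjamini-Hochberg over 12520 genes (threshold 0.05). A fold change on that scale understates low genes. The script was also run on simulated data, in which the spread followed the level of a gene alone. Genes with a wider spread of their own were not simulated. Tables and plots used matplotlib 3.10.9, numpy 2.4.6, pandas 2.3.3 and Python 3.11.15.

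The genes and lists were chosen with earlier results of these data known. Named genes are, per subunit class, the 3 largest falls and rises that passed, the 5 most abundant, those not past the threshold, those against the majority direction, up to 2 per other list and some fixed names. A gene that this rule would name is not reported here. Other members, and the neighbours in pairs where both passed, were named after their values were seen. Alternatives were other pseudocounts (0.1 and 0.5), filters, centrings, limma settings and transcript subsets, and leaving out each library.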

Additional observations from a re-analysis of the deposited data

How the results depend on the processing

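Under 13 alternatives, 4 of which left out a library, 29 of the 46 called genes (22 fallen, 7 risen) kept their call, and none of the 46 changed sign. Between 26 and 31 genes fell and between 12 and 17 rose. Calls were lost most often for Mrpl37, Mrpl53, Mrpl32, Mrps35 and Mrps36. The count of small-subunit genes that rose was 4, and 2 to 4 with a library left out (2 without PolyIC01). With curated transcripts alone the log2 fold change turned to 0.000884 for Mrpl11, -0.32 for Dap3, 0.38 for Gabpa, -0.57 for Pprc1 and -0.16 for Ppp1r10, that of Mrpl14 went from 0.03 to 0.76 (limma adjusted p = 0.0504) on a curated transcript of 1.16 to 3.57 TPM, and centring on a trimmed mean gave 0.00194 for Mrps27; the cause was not tested. With 1 library left out, genes that had not passed took either sign: -0.011 to 0.078 for Mrpl14, -0.0063 to 0.018 for Mrpl17, -0.48 to 0.034 for Mrpl21, -0.72 to 0.063 for Mrpl30, -0.013 to 0.066 for Mrpl35, -0.033 to 0.038 for Mrpl52, -0.100 to 0.016 for Mrps10, -0.114 to 0.173 for Mrps11, -0.026 to 0.061 for Mrps2, -0.055 to 0.036 for Mrps27 and -0.048 to 0.054 for Dap3. The median shift of either centring was at most 0.012 in size. No paired analysis was possible because the replicate numbers of the columns other than NT01 are not settled by the header.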
